A study of Mus musculus with 6 samples.

Results

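The nuclear genes of respiratory complex III, cytochrome c, complex IV and ATP synthase were examined in mouse acute myeloid leukaemia cells. The members were all genes in the array's annotation whose symbol starts with Uqcr, Uqcc, Atp5, Cox4, Cox5, Cox6, Cox7 or Cox8, together with Cyc1 and Cycs. Of 50 such genes, 48 had a probe set of their own among the 22180 genes of the table, namely 13 of complex III with cytochrome c, 17 of complex IV and 18 of ATP synthase. Uqcr10 and Cox6c shared their probe sets with another symbol and were not analysed here. Of the 48 members 2, Uqcrh-ps1 and Atp5c1-ps, are pseudogenes.

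Gene expression was read on 6 microarrays, 3 of MLL-AF9 leukaemias labelled WT and 3 of MLL-AF9 leukaemias labelled Evi1 Tg, all untreated and on the C57BL/6J background. Every array therefore carries the MLL-AF9 fusion oncogene, and the groups differ by the Evi1 transgene, which codes for a zinc finger transcription factor. Each array held total RNA of 10000 unfractionated leukaemia cells sorted for green fluorescence. The sources used here do not give the animals' age, the promoter or cells that drive the transgene, or the number of animals behind each group. The p-values below therefore cover the spread among these 6 samples, which may be technical.

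Complex III passes electrons from ubiquinol to cytochrome c, a small soluble carrier, and complex IV, cytochrome c oxidase, passes them on to oxygen. Both pump protons across the inner mitochondrial membrane, and ATP synthase uses the gradient to make ATP. A few catalytic subunits are encoded in mitochondrial DNA and most others in the nucleus, so that assembly draws on both genomes. Leukaemia stem and progenitor cells are known for their reliance on oxidative phosphorylation, and the series title refers to metabolic reprogramming.

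All values are log2 intensities unless another scale is named, and a difference is Evi1 Tg minus WT. A gene is called above background where its mean intensity over the 6 arrays exceeds 71.4 on the linear scale, the 90th percentile of 60 measured genes listed as silent in blood cells. Of the 48 members 42 lay above it. The 12 measured markers of myeloid leukaemia cells, Ptprc, Itgam, Mpo and Hoxa9 among them, all lay above background, with a summed intensity of 11835 to 16903 over the WT arrays and 14503 to 16578 over the Evi1 Tg arrays. Single markers among these 12 differed by -0.55 to 2.80, although the sums overlapped. At an unadjusted limma p under 0.05, 2 were lower and 3 higher, against 10.2% and 7.42% of all genes above background. After adjustment 0 were under 0.05, and the smallest limma adjusted p was 0.0772. Of 7 T cell markers 0 lay above background, with sums of 305 to 325 (WT) and 316 to 326 (Evi1 Tg). Of 4 erythroid markers 0 lay above background, with sums of 199 to 204 and 198 to 214. Above background were 1 of 6 B cell markers (Cd79b, while Cd79a, Ms4a1 and Pax5 were not), 3 of 8 stromal and endothelial and 4 of 5 megakaryocyte markers. The summed intensity of the megakaryocyte markers ranged from 317 to 690 over the WT arrays and from 325 to 425 over the Evi1 Tg arrays, that of the stromal markers from 592 to 928 and from 641 to 754, and that of the B cell markers from 303 to 355 and, with no overlap, from 277 to 292. Their part in the differences below was not tested. In bulk RNA, fewer cells of a type and less RNA per cell cannot be told apart. The array WT 3 stood apart, since the count of genes called lower and higher over the whole table was 23 and 2 with it, and 173 and 383 without it. Values without WT 3 are therefore given beside the main results.

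No member differed between the groups past the test. With limma and Benjamini-Hochberg adjustment over all genes, 0 of 48 members had an adjusted p under 0.05, where 0.104% of all genes were lower, 0.00902% higher and 0.113% either, and the smallest adjusted p among them was 0.28. At an unadjusted limma p under 0.05, 4 members were lower in Evi1 Tg, where 5.8% of all genes were, and 1 was higher, against 4.5% of all genes and 10.3% in either direction. The arrays of the groups did not overlap for 3 members lower in Evi1 Tg (7.47% of all genes) and 1 higher (7.08% of all genes, and 14.6% in either direction). By their mean over 6 arrays these members lay above background, Cox6b2 through its WT arrays alone, and among all genes above background 10.2% were lower and 7.42% higher at an unadjusted p, and 11.1% lower and 8.02% higher without overlap. Without WT 3 still 0 members passed. At an unadjusted p 10 were then lower, against 7.05% of all genes and 11.9% of those above background, and 2 higher, against 9.42% and 18.5%. Without Evi1 Tg 1 the count was 6 lower, against 4.34% and 7.84%, and without Evi1 Tg 2 it was 1, against 3.9% and 6.57%.

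The differences were small, as they were over all genes, and most intervals excluded a 2-fold change. The 95% interval lay within a 2-fold change in either direction for 47 of the 48 members, and within a 1.5-fold change for 35 of them. The exception to the first was Cox6b2. The median absolute difference was 0.12, while the 3 WT arrays of a member spanned a median range of 0.33, and the WT range exceeded the difference between groups for 44 of 48 members. Of all 22180 genes, 21102 had intervals within 2-fold, 17861 within 1.5-fold and 18418 a WT range above the difference (median absolute difference 0.0951). Above background these counts were 9278, 6577 and 8303 of 10261 genes (median 0.154), and 41, 29 and 38 of 42 members (median 0.121). Of the members 34 had a difference below 0 and 14 above, with a median of -0.07. Over all genes the median was 0.01 and 46.5% lay below 0.

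**Figure D1:**
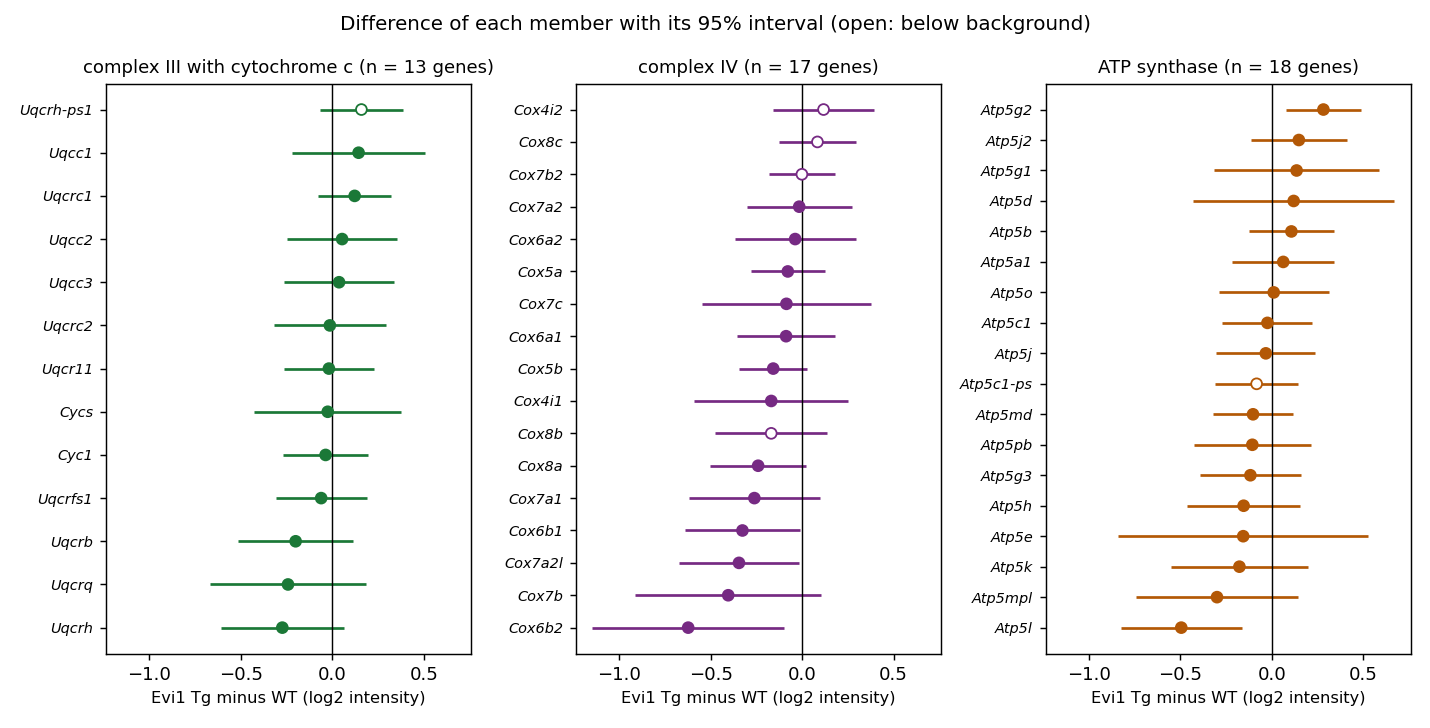
Difference of each of the 48 members between Evi1 Tg and WT (horizontal axis, log2 intensity; point: difference, line: 95% limma interval), in 3 panels for complex III with cytochrome c, complex IV and ATP synthase; open points mark genes below background. Most intervals cross 0, with Atp5l, Atp5g2, Cox6b2, Cox7a2l and Cox6b1 as the 5 that do not. In complex IV the 13 filled points lie below 0, where 49.6% of all genes above background did. Cox6b2 among them passed the background filter through its WT arrays alone.

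Promoter sequence is shown for the 6 members whose groups were separate or overlapped by a single pair of arrays with an unadjusted p under 0.05, because nuclear subunits of these complexes are known to share binding sites for the factors NRF1 and GABP, an ETS protein. The lines give the 150 bases before the start site from RefSeq on GRCm38.p6, 5′ to 3′ on the strand of the gene, with motif matches in capitals. The matches are to GCGCA and GCGC with any 1 base between them for NRF1 and to CCGGAAG for ETS proteins, searched on both strands. Atp5g2 at chr15:102671048-102671197 (minus strand) had the highest difference of all members, Cox6b1 lies at chr7:30626115-30626264 (minus), Cox5b at chr1:36691337-36691486 (plus) and Atp5l, which had the smallest p, at chr9:44920743-44920892 (minus). Cox6b2 lies at chr7:4753095-4753244 (minus) and Cox7a2l at chr17:83514334-83514483 (minus).
Atp5g2: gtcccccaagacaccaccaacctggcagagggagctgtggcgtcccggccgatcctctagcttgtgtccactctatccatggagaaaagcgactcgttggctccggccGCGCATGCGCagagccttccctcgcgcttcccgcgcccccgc
Cox6b1: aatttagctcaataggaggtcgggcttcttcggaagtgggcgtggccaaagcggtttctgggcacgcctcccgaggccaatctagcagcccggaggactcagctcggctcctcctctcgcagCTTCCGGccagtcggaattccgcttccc
Cox5b: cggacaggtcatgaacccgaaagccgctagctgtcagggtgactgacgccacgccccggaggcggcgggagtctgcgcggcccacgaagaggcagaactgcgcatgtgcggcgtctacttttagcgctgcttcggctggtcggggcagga
Atp5l: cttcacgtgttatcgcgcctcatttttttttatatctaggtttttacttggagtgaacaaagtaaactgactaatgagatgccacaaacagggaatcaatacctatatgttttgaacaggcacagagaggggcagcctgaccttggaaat
Cox6b2: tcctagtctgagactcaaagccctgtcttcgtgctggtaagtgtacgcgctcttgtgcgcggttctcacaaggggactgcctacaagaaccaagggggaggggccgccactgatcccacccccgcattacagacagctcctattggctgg
Cox7a2l: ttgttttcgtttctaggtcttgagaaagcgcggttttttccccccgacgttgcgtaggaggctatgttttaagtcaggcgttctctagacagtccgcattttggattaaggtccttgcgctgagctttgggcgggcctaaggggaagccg
The NRF1 match of Atp5g2 ends 32 bases before the start site, and the ETS match of Cox6b1 ends 21 bases before it. The windows of Cox5b, Atp5l, Cox6b2 and Cox7a2l shown hold neither motif, and Atp5l has an ETS match 205 bases before its start. Over the full 250 bases upstream, 36 of the 46 members that are not pseudogenes had a window in the table. Of these, 6 (16.7%) held the NRF1 motif, namely Atp5c1, Atp5g2, Atp5h, Atp5k, Cox6a1 and Uqcc2, against 4.23% of 27025 genes with a window. The ETS motif was in 8 (22.2%), against 7.83% of all. Motifs known for the zinc finger domains of EVI1, ACAAGATAA and GAAGATGAG, were in 0 of the 36 and in 0.278% and 0.4% of all genes. Members with the NRF1 motif lay on both sides of 0, with Atp5g2 at 0.28 and Atp5k at -0.18. The 8 with the ETS motif were Atp5e, Atp5h, Atp5j, Atp5l, Cox6a1, Cox6b1, Uqcr11 and Uqcrh. They lay below 0, from -0.50 (Atp5l) to -0.02 (Uqcr11). So did 34 of the 48 members, a count that includes members without a window. Several of these signs rested on single arrays. Without WT 2, Atp5e was at 0.02, Atp5j at 0.03, Uqcr11 at 0.02 and Cox6a1 at 0.0026. The other probe set of Atp5e differed by 0.07. Atp5h (-0.15) and Cox6a1 (-0.09) hold both motifs. Whether a motif goes with the sign was not tested. A match describes letters in a window and shows no binding.

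In complex III the members lay close to 0, with 8 below and 5 above and a median difference of -0.02. None of the 13 had groups that did not overlap or an unadjusted p under 0.05. Among the core subunits, Uqcrc1, which lines the matrix side of the complex, read 9.63, 9.79 and 9.63 in WT 1, 2 and 3 and 9.86, 9.76 and 9.80 in Evi1 Tg 1, 2 and 3. The Evi1 Tg arrays were high apart from the second, which WT 2 passed, and the difference was 0.12 (SE 0.0839, n = 3 per group, limma adjusted p = 0.707). Its partner Uqcrc2 differed by -0.01 and the Rieske iron-sulphur protein Uqcrfs1 by -0.06. Cyc1, the haem subunit that hands electrons to cytochrome c, differed by -0.04. Cycs, cytochrome c itself and also a trigger of apoptosis when released, read 11.04, 10.90 and 11.54 on the WT arrays against 11.11, 11.24 and 11.05 on the Evi1 Tg arrays. WT 3 was the highest of the 6 arrays and WT 2 the lowest, so that the groups overlapped (difference -0.02, 95% interval -0.43 to 0.38), and without WT 3 the difference turned to 0.17. The 4 other Cycs probe sets, among them a pair with identical values (-0.30), differed by -0.30 to 0.13. Above 0 lay only the dimmest, at a mean intensity of 81.1 against the background of 71.4. Averaged over its probe sets, Cycs differed by -0.14.

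The 4 measured small subunits of complex III had a median difference of -0.22 and lay below 0, and its 3 assembly factors among the members, Uqcc1, Uqcc2 and Uqcc3, lay above 0 with a median of 0.05. This grouping by role was made after the values were seen, and single arrays decided several signs, with Uqcr11 at 0.04 without WT 1, Uqcc2 at -0.04 without WT 3 and Uqcc3 at -0.07 without Evi1 Tg 3. Uqcrh, the acidic hinge protein near cytochrome c1, read 8.06, 8.54 and 8.39 on the WT arrays against 8.22, 7.98 and 7.98 on the Evi1 Tg arrays, where Evi1 Tg 1 lay above WT 1 (difference -0.27, SE 0.142, limma adjusted p = 0.588). Uqcrb, which binds the mitochondrially encoded cytochrome b, differed by -0.20 (SE 0.133, limma adjusted p = 0.695), and Uqcrq, another small subunit, by -0.24. Uqcr11 differed by -0.02. Uqcc1, which helps make cytochrome b, read 7.95, 7.95 and 8.47 on the WT arrays against 8.30, 8.35 and 8.16 for Evi1 Tg. WT 3 was again above all Evi1 Tg arrays, and without it the difference of Uqcc1 moved from 0.14 to 0.32 (limma adjusted p = 0.158). The pseudogene Uqcrh-ps1 lay below background in both groups, at mean intensities of 23.4 and 26.2.

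Complex IV leaned furthest toward lower values. Of its 17 members 15 lay below 0, with a median difference of -0.16, where 46.5% of all genes lay below 0. The 13 with a mean above background lay below 0 (median -0.17), where 49.6% of all genes above background did. One of them, Cox6b2, passed that filter through its WT arrays alone, and without it 12 of 12 lay below 0 with a median of -0.16. The median deviation of the 17 genes from their mean over 6 arrays came to 0.11, 0.19 and -0.09 for WT 1, 2 and 3, and to 0.04, -0.12 and -0.15 for Evi1 Tg 1, 2 and 3. WT 3 lay below Evi1 Tg 1, so the groups overlapped, and the SD of these deviations was 0.15 among WT and 0.10 among Evi1 Tg arrays. In 13 of the 17 genes WT 3 was the lowest WT array. Leaving out WT 3 gave a median difference of the 17 genes of -0.19, leaving out WT 2 one of -0.10 and leaving out Evi1 Tg 2 one of -0.09. Of the 13 members above background, 12 lay below 0 with quantile normalization, with array weights, and without WT 3, Evi1 Tg 2 or Evi1 Tg 3, and 11 without WT 1 or without WT 2. The median of these 13 was -0.31 without WT 3 and -0.31 without Evi1 Tg 1, and -0.15 without WT 2 or Evi1 Tg 2.

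In complex IV, 10 members were counted as general to most tissues, with Cox7a2l placed among them by its symbol alone. The grouping was made after the values were seen. Of these members, 10 of 10 lay below 0 (median -0.16), where 49.6% of all genes above background did. Single arrays decided some signs, with Cox7a2 at 0.04 and Cox6a1 at 0.0026 without WT 2, and Cox7c at 0.14 without WT 3. Cox7a2l read 8.22, 8.35 and 7.89 on the WT arrays against 7.96, 7.71 and 7.76 on the Evi1 Tg arrays. Evi1 Tg 1 lay above WT 3, and the difference was -0.34 (SE 0.139, 95% interval -0.67 to -0.02, limma adjusted p = 0.458), or -0.48 without WT 3 (adjusted p = 0.0853). Cox6b1, on the outer face where cytochrome c docks, read 10.09, 9.94 and 9.70 on the WT arrays against 9.77, 9.49 and 9.49 on the Evi1 Tg arrays, with the same single overlap of Evi1 Tg 1 with WT 3. Its difference was -0.33 (SE 0.132, limma adjusted p = 0.463), and -0.43 without WT 3.

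Cox5b, a zinc-binding subunit on the matrix side, was the general subunit whose arrays separated the groups. It read 9.70, 9.79 and 9.64 on the WT arrays against 9.57, 9.53 and 9.55 on the Evi1 Tg arrays, a narrow margin with each of the latter below each of the former (difference -0.16, SE 0.0786, limma adjusted p = 0.566). Its other probe set, at a mean intensity of 48.8 and thus below background, differed by 0.10. Cox8a, a small membrane subunit, read 11.07, 11.23 and 10.95 on the WT arrays against 10.998, 10.73 and 10.79 on the Evi1 Tg arrays (difference -0.24, SE 0.111), with Evi1 Tg 1 above WT 3. Cox7b, needed for assembly of the complex, had one of the larger differences of the group at -0.40 (SE 0.215), but WT 3 (8.72) lay below Evi1 Tg 1 (9.02) and Evi1 Tg 3 (8.77). Its other, dim probe set differed by -0.05. Cox4i1, which binds ATP as a regulatory subunit, differed by -0.17, Cox6a1 by -0.09, Cox5a by -0.08 and Cox7a2 by -0.02. Cox7c differed by -0.09. In Cox7c (7.54) and Cox5a (9.70) WT 3 was the highest of the 6 arrays, unlike in the other complex IV members.

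Some complex IV subunits have forms restricted to muscle, lung or testis, and these were dim. Of 7 such forms 3 lay above background, with means close to it. Cox6b2, the testis form of Cox6b1, read 6.62, 7.25 and 6.31 on the WT arrays against 6.07, 6.10 and 6.15 on the Evi1 Tg arrays. All Evi1 Tg arrays lay below all WT arrays, and WT 2 stood well above the rest. The difference was -0.62 (SE 0.222, 95% interval -1.15 to -0.10, limma adjusted p = 0.395), or -0.36 without WT 2 and -0.83 without WT 3 (adjusted p = 0.0734). Its mean intensity was 106 for WT and 68.9 for Evi1 Tg, and each of the 3 Evi1 Tg arrays lay below background. The heart and muscle forms Cox7a1 and Cox6a2 differed by -0.26 and -0.04. Cox4i2, a lung form induced by low oxygen, and the other heart and muscle form Cox8b lay below background, as did Cox8c and Cox7b2 of the testis, with differences of 0.12, -0.17, 0.08 and -0.0008.

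**Figure D2:**
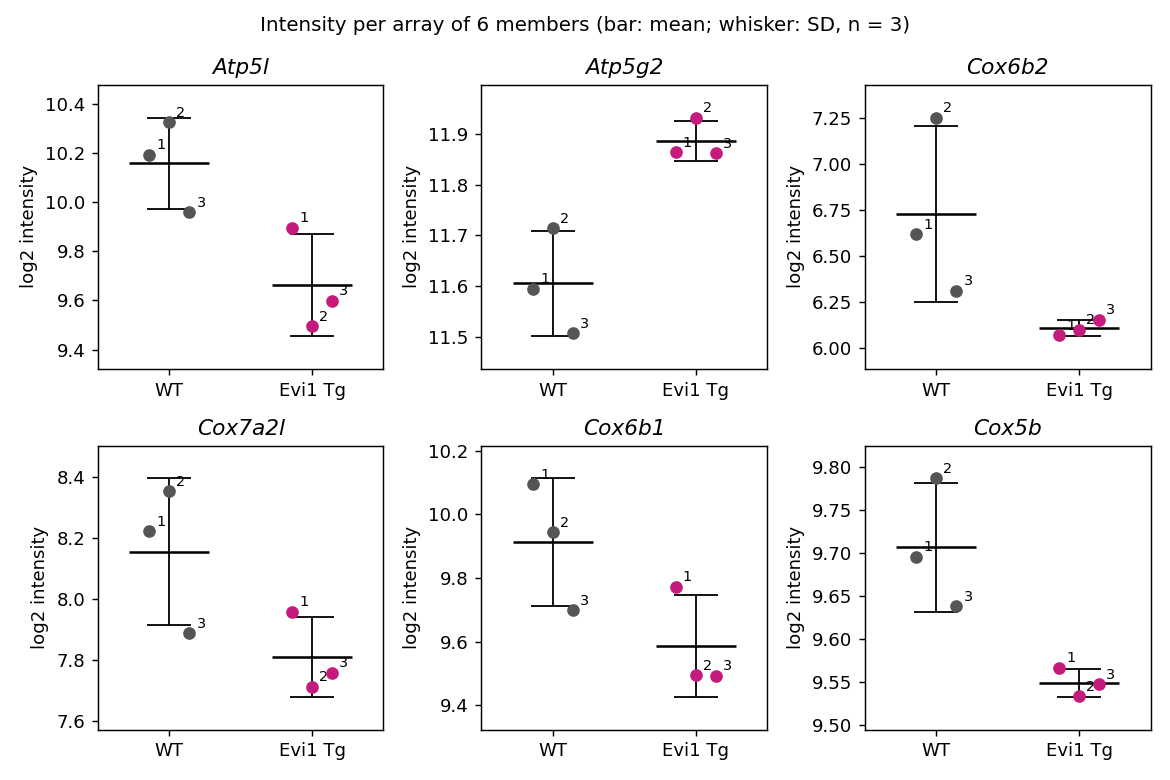
Log2 intensity of each array (vertical axes, 1 panel per gene with its own range) for Atp5l, Atp5g2, Cox6b2, Cox7a2l, Cox6b1 and Cox5b in WT (grey) and Evi1 Tg (pink); numbers name the replicate, bars the mean and whiskers the SD of 3 arrays. The groups do not overlap for Atp5l, Atp5g2, Cox6b2 and Cox5b, while for Cox7a2l and Cox6b1 Evi1 Tg 1 lies above WT 3.

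In ATP synthase 11 members lay below and 7 above 0, with a median difference of -0.06, which was 0.01 without WT 2. The catalytic head was close to 0. Atp5a1, the alpha subunit, differed by 0.06 (95% interval -0.22 to 0.34). Atp5b, the beta subunit that carries the catalytic sites, read 11.98, 12.18 and 12.29 on the WT arrays against 12.27, 12.24 and 12.26 on the Evi1 Tg arrays, where the Evi1 Tg arrays lay together near the top of the WT range (difference 0.11, SE 0.0979, limma adjusted p = 0.809). Of the central stalk, which turns inside the head, the gamma subunit Atp5c1 differed by -0.02. The delta and epsilon subunits Atp5d and Atp5e differed by 0.12 and -0.16, and their other probe sets by -0.07 and 0.07, with opposite signs. Atp5e read 7.81 in WT 3 against 8.88 and 8.89 in WT 1 and 2, a wider WT range than that of any other member, and its difference moved to -0.52 without WT 3 (limma adjusted p = 0.0899).

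The c ring, the rotor of the membrane part, is encoded by Atp5g1, Atp5g2 and Atp5g3, which are known to give the same mature protein. Atp5g2 read 11.59, 11.71 and 11.51 on the WT arrays against 11.86, 11.93 and 11.86 on the Evi1 Tg arrays. All Evi1 Tg arrays lay above all WT arrays (difference 0.28, SE 0.0861, 95% interval 0.08 to 0.48, limma adjusted p = 0.32). The exact two-sided permutation p was 0.10, the smallest that 3 against 3 arrays can give. Its second probe set differed by 0.29, and without WT 3 the difference was 0.23. Atp5g1, close to background, differed by 0.13 (SE 0.191), which ranged from 0.0071 without Evi1 Tg 1 to 0.30 without Evi1 Tg 3. Atp5g3 differed by -0.12 (SE 0.117). The groups overlapped for both, and the differences between the 3 genes were not tested.

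The small membrane subunits of ATP synthase, which help its dimers bend the inner membrane, held the member with the smallest p. Atp5l, subunit g, read 10.19, 10.32 and 9.96 on the WT arrays against 9.90, 9.49 and 9.60 on the Evi1 Tg arrays, all of the latter below all of the former. The difference was -0.50 (SE 0.14, 95% interval -0.83 to -0.16, limma adjusted p = 0.28, exact two-sided permutation p = 0.10), from a mean intensity of 1143 to 811, and it was -0.60 without WT 3 (limma adjusted p = 0.0853). Atp5mpl read 9.28, 9.46 and 9.20 on the WT arrays against 9.21, 8.58 and 9.26 on the Evi1 Tg arrays, a difference of -0.30 (SE 0.188) that moved to -0.08 without Evi1 Tg 2. Atp5k, subunit e and the known partner of Atp5l, differed by -0.18 and Atp5md by -0.10. Atp5j2, subunit f and close to background, differed by 0.15 (SE 0.111, limma adjusted p = 0.749). The peripheral stalk, which holds the head still, had 3 of 4 members below 0 and a median of -0.07, with Atp5h at -0.15, Atp5pb at -0.11, Atp5j at -0.03 and Atp5o at 0.01. The inhibitor Atpif1, which blocks the reverse reaction, read 10.37 to 10.55 on the WT and 10.48 to 10.54 on the Evi1 Tg arrays (difference 0.03, limma adjusted p = 0.951). The pseudogene Atp5c1-ps was below background.

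**Figure D3:**
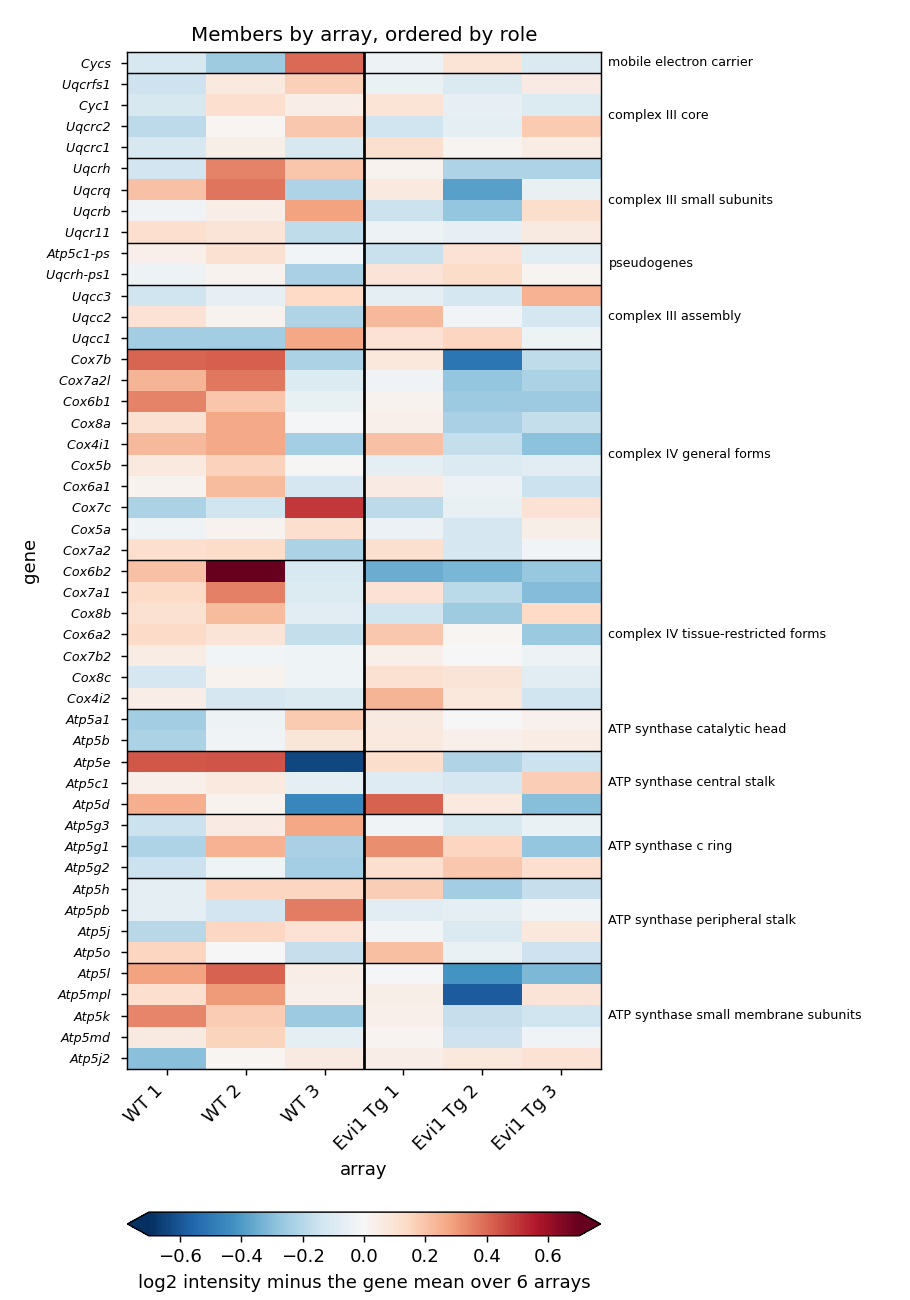
Log2 intensity of each of the 48 members minus its mean over the 6 arrays (colour, capped at 0.7 in either direction), with arrays as columns and genes as rows grouped by role. WT 1 and WT 2 are mostly red and WT 3 mostly pale or blue in complex IV, while in Cycs, Cox7c, Atp5pb and Atp5g3 WT 3 is the highest array.

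The array WT 3 was the highest WT array for 13 members and the lowest for 28. For the catalytic head of ATP synthase it was highest in 2 of 2 genes, with a median deviation of 0.13 against -0.23 and -0.03 in WT 1 and 2. For the central stalk it was lowest in 3 of 3, with -0.46 against 0.25 and 0.07. It was the lowest WT array in 8 of 10 general complex IV subunits and in 4 of 5 small membrane subunits of ATP synthase. It was highest in 1 and lowest in 1 of 4 peripheral stalk subunits, and highest in 1 and lowest in 2 of 4 small subunits of complex III. These role groups were formed after the values were seen and were not tested against each other. Over all genes above background WT 3 was highest in 5253 and lowest in 3050 of 10261.

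**Figure D4:**
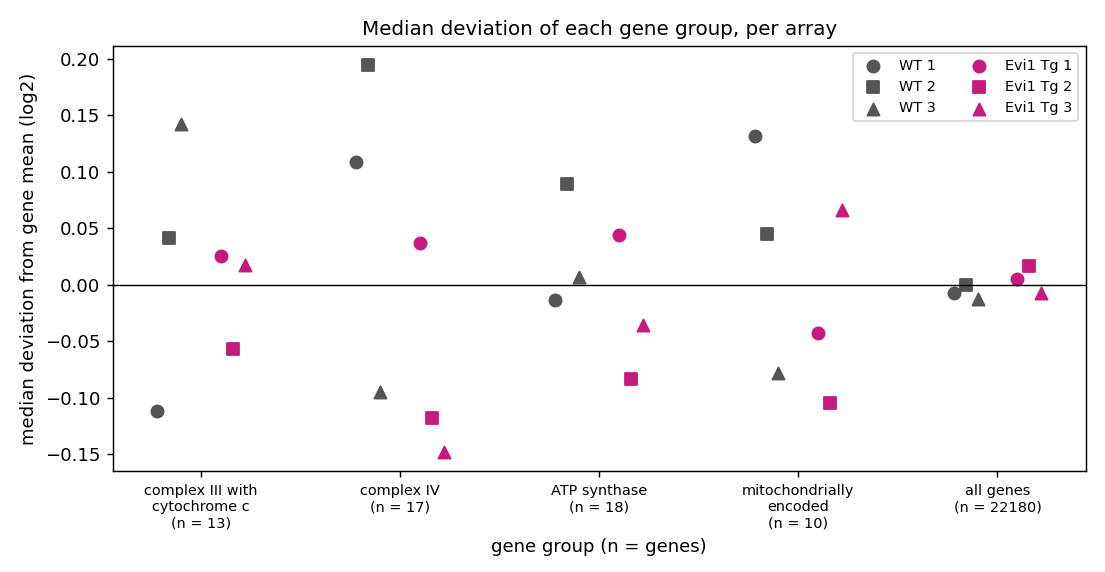
Median deviation of the genes of each group from their mean over the 6 arrays (vertical axis, log2; horizontal axis, gene groups with the number of genes), 1 point per array with WT in grey and Evi1 Tg in pink and the replicate as symbol. The arrays of WT and Evi1 Tg overlap in each of the 5 gene groups plotted, and in complex IV WT 3 at -0.09 lies with Evi1 Tg 2 and 3.

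Subunits encoded in mitochondrial DNA showed the same small scale of difference. Of 13 genes, 10 had a probe set of their own, all above background, and 0 passed the test. Of the 10, 9 lay below 0, where 49.6% of all genes above background did. Among these 9, ND2, ND4 and ND4L turned above 0 with quantile normalization. mt-Co1, a catalytic subunit of complex IV listed as COX1, had mean intensities of 10688 (WT) and 10416 (Evi1 Tg) (difference -0.04, SE 0.0965), mt-Co3 (COX3) differed by -0.12, and mt-Cytb (CYTB), the electron-carrying subunit of complex III, by -0.09 (SE 0.0949). Without overlap was 1 of the 10, mt-Nd3 (ND3) of complex I, where 11.1% of all genes above background were lower without overlap. It read 13.16, 13.25 and 13.21 on the WT arrays against 13.00, 12.62 and 12.88 on the Evi1 Tg arrays, all lower (difference -0.37, SE 0.112, limma adjusted p = 0.317). mt-Co2, mt-Atp6 and mt-Atp8 shared probe sets with other symbols and were not analysed here.

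Among the assembly factors of complex IV, all above background, 0 passed the test. Of 22 measured of 25 listed, 14 lay below 0 with a median of -0.09. At an unadjusted p 3 were lower and 1 higher, where 10.2% and 7.42% of all genes above background were. The arrays did not overlap for 4 lower and 1 higher, against 11.1% and 8.02%. Surf1, an early assembly factor, read 8.54, 8.51 and 8.43 on the WT arrays against 8.20, 8.05 and 8.27 on the Evi1 Tg arrays (difference -0.32, SE 0.0893, limma adjusted p = 0.271). Cmc1, which stabilises newly made mt-Co1, read 7.50, 7.78 and 8.29 on the WT arrays against 6.91, 6.96 and 7.46 on the Evi1 Tg arrays, the top Evi1 Tg array lying just under the lowest WT array (difference -0.75, SE 0.231, limma adjusted p = 0.324). The copper chaperone Cox17 differed by -0.28 (SE 0.113) and Cox19, which also serves copper delivery, by 0.19 (SE 0.0776). The 3 other factors of complex III were Lyrm7 (0.13), Ttc19 (0.05) and Bcs1l (-0.01). Among 6 measured factors of ATP synthase, Tmem70 differed by 0.17, Atpaf2 by 0.09, Tmem242 by -0.09 and Dmac2l by -0.10.

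Other mitochondrial lists lay on either side of 0. Complex II had 4 of 8 genes below 0 (median -0.02), with its iron-sulphur subunit Sdhb higher on all Evi1 Tg arrays (0.19, SE 0.0783, limma adjusted p = 0.46) and Sdha at 0.17, Sdhaf2 at -0.17 and Sdhaf4 at -0.28. The 42 genes with symbols starting with Nduf, of complex I, had 29 below 0 and a median of -0.09. Import, carrier and mass genes had 4 of 12 below 0 and a median of 0.04, among them the import pore Tomm40 at 0.43 (SE 0.16), Timm23 at 0.26, the chaperonin Hspd1 at 0.42 (SE 0.264) and the carrier Slc25a4 at -0.17. These medians were not tested against each other.

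Of 14 regulators of mitochondrial gene expression, 0 passed the test and 9 lay above 0. The arrays of the groups did not overlap for 1 regulator lower and 1 higher, against 7.47% and 7.08% of all genes. Among all genes above background, as 13 of the 14 were, the shares were 11.1% and 8.02%. Pprc1, a coactivator related to PGC-1alpha, read 8.09, 8.25 and 8.35 on the WT arrays against 8.65, 8.67 and 8.60 on the Evi1 Tg arrays. All Evi1 Tg arrays were higher (difference 0.41, SE 0.0918, limma adjusted p = 0.198), and without WT 3 the adjusted p was 0.0574. Nrf1, whose protein binds the motif printed above, differed by 0.27 (SE 0.139, limma adjusted p = 0.588), Esrra by -0.17 and Ppargc1b by -0.23. Ppargc1a, the PGC-1alpha gene itself, lay below background in both groups, at mean intensities of 30.2 and 30.9. Of 5 genes linked to low oxygen, Hif1a differed by 0.17, Egln3 by -0.33, Lonp1 by 0.14 and Ndufa4l2, below background, by 0.10, with 0 past the test.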

How the data were processed

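The values are 1 deposited table of probe set intensity for 6 arrays, linear as judged from their range (17.8 to 14719). Which background correction, normalization and summary the authors applied to this intensity is unknown here; the array medians (51.6 to 55.4) were close. Per the labels' protocols, cDNA was biotinylated with a GeneChip WT PLUS kit. Of 34351 probe sets, 23521 had a single symbol in the platform annotation, and each gene took its probe set of highest mean log2 value, a choice that arose for 7 of the 48 members. Genes of mitochondrial DNA were matched under the annotation's names. Probe sequences were not used here, so cross-hybridisation with paralogs and pseudogenes was not tested.

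After log2 transformation with no pseudocount, limma 3.58.1 (lmFit, eBayes; R 4.3.3) compared the 3 Evi1 Tg with the 3 WT arrays. Benjamini-Hochberg adjustment ran across 22180 genes, at 0.05. On data simulated for this comparison (22180 genes, 200 changed) it recovered 79% of 2-fold and 99% of 4-fold changes and called 14 unchanged genes. The simulated residuals were independent between genes and held no array that stood apart as WT 3 did. These rates therefore do not measure recovery on the real arrays. The number of arrays limits the precision.

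The members and lists were chosen with earlier results of these data known. Named members were those with separate groups and an unadjusted p under 0.05, up to 6 per complex and direction, or else the 2 with the smallest p, plus a fixed set of core subunits, paralogs and the inhibitor; each other list gave up to 4 by p. Other members named, and the grouping by role, were chosen after their values were seen. Motifs were searched in RefSeq promoter windows of GRCm38.p6. Other settings tried were scaling (quantile, median), a filter on dim genes, a pseudocount of 16, trended robust eBayes, weighted arrays, the replicate number as block, averaged probe sets, Evi1 Tg 1 and 2 averaged, and each array left out.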

Additional observations from a re-analysis of the deposited data

How the results depend on the processing

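Of the 48 members 0 passed the adjusted threshold of limma under the 15 alternatives, and the smallest adjusted p among the members was 0.0734, without WT 3. The median differences of the 3 groups of members moved by less than the spread between arrays, except that of ATP synthase without WT 2. Without each array in turn the median difference of complex III with cytochrome c ranged from -0.0854 to 0.0153, the median difference of complex IV from -0.19 to -0.0876 and the median difference of ATP synthase from -0.0955 to 0.0074. With array weights that of complex III was 0.023. Over all genes, 23 lower and 2 higher became 35 and 7 with dim genes left out, 9 and 0 with a pseudocount of 16, 82 and 32 with array weights, 6 and 0 with Evi1 Tg 1 and 2 averaged, and from 2 to 173 lower and 0 to 383 higher without each array in turn. The trend and robust settings gave 6 higher. Same-numbered arrays correlated in their deviations from the group means at 0.189, -0.184 and 0.0614, and differently numbered ones at -0.228 to 0.117. With 3 arrays per group, whose deviations sum to 0, these values cannot decide whether the numbers pair the samples. With the replicate block 9 genes were lower and 0 higher, with 0 members called. Among the 48 members, the genes named by rule from the other lists, Atpif1 and the mitochondrially encoded genes, these differences turned in sign. With array weights Cycs was at 0.0648, Cyc1 at 0.0230, Uqcrc2 at 0.0142, Bcs1l at 0.0061, Atp5j at 0.0150 and Cox7c at 0.0021. With quantile normalization Cox7a2 was at 0.0036, ND2 at 0.0305, ND4 at 0.0443 and ND4L at 0.0596. With the mean over probe sets Hif1a was at -0.0753. With Evi1 Tg 1 and 2 averaged Uqcrc2 was at 0.0344, Atp5c1 at 0.0213, Bcs1l at 0.0179, Atp5o at -0.0281, Uqcr11 at 0.0004, ND4L at 0.0453 and ND5 at 0.0149. Without each array in turn the ranges were -0.0443 to 0.1693 for Atp5a1, -0.1164 to 0.0277 for Atp5c1, -0.0809 to 0.2977 for Atp5d, -0.5152 to 0.0230 for Atp5e, -0.1402 to 0.0313 for Atp5j, -0.0928 to 0.0880 for Atp5o, -0.2013 to 0.0444 for Atp5pb, -0.0267 to 0.1810 for Atpaf2, -0.0189 to 0.0705 for Atpif1, -0.0663 to 0.0812 for Bcs1l, -0.0926 to 0.0151 for COX1, -0.1682 to 0.0026 for Cox6a1, -0.1412 to 0.0821 for Cox6a2, -0.1294 to 0.0442 for Cox7a2, -0.0197 to 0.0257 for Cox7b2, -0.2187 to 0.1395 for Cox7c, -0.1006 to 0.0153 for Cyc1, -0.1553 to 0.1686 for Cycs, -0.2253 to 0.0767 for Dmac2l, -0.0030 to 0.2201 for Lyrm7, -0.1254 to 0.0141 for ND1, -0.0680 to 0.0176 for ND2, -0.1307 to 0.0629 for ND4L, -0.0717 to 0.0202 for ND5, -0.4153 to 0.0002 for Ppargc1b, -0.2728 to 0.0197 for Slc25a4, -0.1978 to 0.0042 for Tmem242, -0.0092 to 0.1331 for Ttc19, -0.0454 to 0.1298 for Uqcc2, -0.0736 to 0.1181 for Uqcc3, -0.1118 to 0.0354 for Uqcr11, -0.1067 to 0.0787 for Uqcrc2 and -0.1476 to 0.0085 for Uqcrfs1. The cause was not tested. Members below background were left out with dim genes and have no value there.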
